A study of Mus musculus with 9 samples.

Results

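The muscle coat of the mouse colon was compared between 5 weeks (PW5) and 1 week (PW1) of age. The comparison took every library of these 2 ages, 6 of the 9 libraries of the series. Of 10011 genes listed, 10003 carry a symbol, and the 9875 of these whose mean over the 6 libraries reached 0.5 FPKM were tested. FPKM is fragments mapped to a transcript, scaled for its length and for the size of the library. Each age has 3 untreated C57BL/6 mice, 1 library per mouse, and the mice of the remaining age (PW3, 3 weeks) are given beside the others as values with no test. Tissue was colon freed of its mucosa by sharp dissection, and pieces of proximal and distal colon were prepared; the supplement calls the sequenced tissue whole colon, and the share of each part in a library is not stated. PW1 replicate 3 carries the number 5 in its label. The question is which genes of the muscle coat, its nerves and its connective tissue differ between a suckling and a weaned, juvenile animal.

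The muscularis externa consists of an inner circular and an outer longitudinal layer of smooth muscle. Between them lies the myenteric plexus, whose neurons and glia control contraction, and interstitial cells of Cajal pace the slow waves that spread through gap junctions. In the weeks after birth smooth muscle cells pass from dividing and laying down matrix to a contractile state, while diet changes from milk to chow and adrenal and thyroid hormones surge.

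The tissue label was checked against markers. All 10 smooth muscle markers were measured in every library, and they summed to 17516, 15415 and 14208 FPKM in the PW1 libraries and 22152, 19475 and 20144 FPKM in the PW5 libraries. Actg2, the enteric gamma-actin, was the most abundant of them, at 5829.8, 5215 and 4396 FPKM at PW1 and 6926, 4934 and 5291 FPKM at PW5. Markers of other cells were present too. The 16 markers of mucosal epithelium summed to 55.1, 75.7 and 161 FPKM at PW1 and 1165, 107 and 946 FPKM at PW5, so PW5 replicates 1 and 3 stood far above PW5 replicate 2. Their most abundant gene was Car1, and 5, 2 and 0 of the 16 were listed at 0 in the PW1 libraries against 0, 2 and 1 in the PW5 libraries. The 10 of 12 skeletal muscle markers in the table summed to 119, 1081 and 200.3 FPKM at PW1 and 123, 118 and 135 FPKM at PW5, with the high value in PW1 replicate 2. The 5 red blood cell markers, near-identical globin copies among them, also peaked in PW1 replicate 2, with 507, 1207 and 344 FPKM at PW1 against 117, 62.7 and 49.99 FPKM at PW5. In bulk tissue fewer cells of a type and less RNA per cell cannot be told apart, which holds for every gene described here.

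At an adjusted p under 0.05 (limma, Benjamini-Hochberg over all genes tested), 893 genes were higher at PW5, which is 9.04% of the genes tested, and 1667 were lower, which is 16.9%. With a log2 fold change of at least 1 as well, 336 genes were higher (3.4%) and 621 were lower (6.29%). In each of these 2560 genes every library of one age lay above every library of the other. The same held for 44.2% of all genes tested, so ages that do not overlap are common here and do not set a gene apart. The median log2 fold change over all genes tested was -0.11 on the deposited scale and 0.001 after median-of-ratios scaling of the libraries, so the counts and directions of gene groups are read against these shares and that shift. Of the genes called, 34.9% were higher at PW5 on the deposited scale, 48.2% after median-of-ratios scaling and 45.7% after quantile normalization. With the 16 epithelial markers' mean log2 level as a covariate, 563 genes were higher and 1147 lower. With PW5 replicates 1 and 3 both left out, so that the lone PW5 library is assumed to vary like the others, 442 were higher and 996 lower; both of these fits were chosen after seeing the data. Within an age, 569 genes at PW1 and 589 at PW5 differed over 10-fold between mice with a highest value of at least 5 FPKM. The deposited values are FPKM without counts, so the depth behind a value is unknown.

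**Figure D1:**
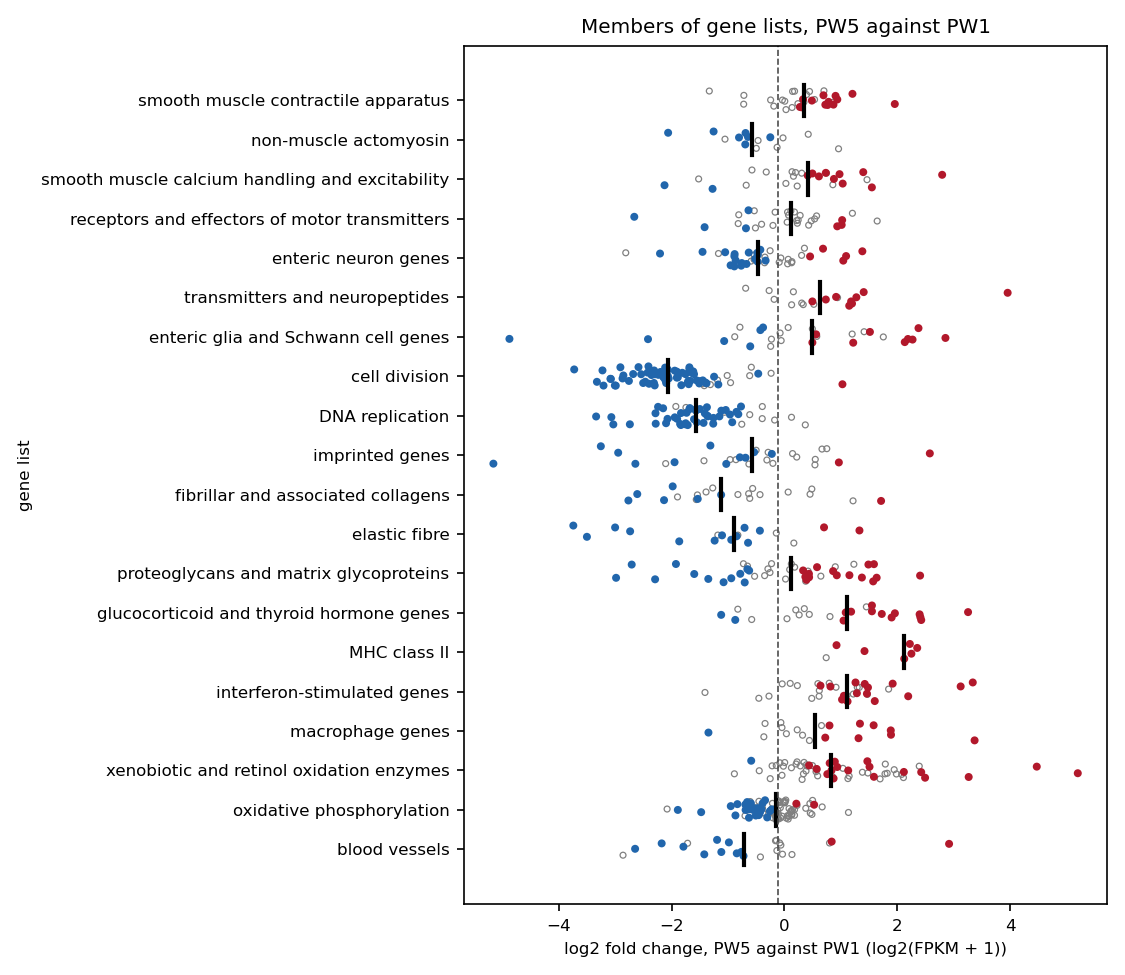
Log2 fold change of PW5 against PW1 for the members of 20 gene lists. Each point is a gene tested, filled where limma gave an adjusted p under 0.05, the black tick is the list's median and the dashed line is the median of all genes tested (-0.11). The medians of cell division and MHC class II lie left and right of that line.

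In the smooth muscle contractile apparatus more genes rose than fell, and in non-muscle actomyosin more fell than rose. Of 31 genes of the contractile apparatus tested, 13 rose and 0 fell, with a median log2 fold change of 0.35 against -0.11 over all genes. Without PW1 replicate 2 or without PW1 replicate 3, 8 of them rose. Of 14 genes of non-muscle actomyosin, 7 fell and 0 rose (median -0.57).

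Cnn1, encoding calponin 1, which binds actin and restrains the myosin ATPase, was at 206, 232 and 234 FPKM in the PW1 libraries and at 786, 868 and 967 FPKM in the PW5 libraries. It rose by 1.96 on the log2 scale (SE 0.097, n = 3 per age, limma adjusted p = 0.00025). Every PW5 library stood more than 3-fold above every PW1 library, and PW3 replicate 3 (1382 FPKM) was above both. Des, the muscle intermediate filament desmin, went from 1106, 888 and 846 FPKM to 2507, 2085 and 1957 FPKM and rose by 1.21 (SE 0.15, limma adjusted p = 0.0031; 0.064 without PW5 replicates 1 and 3). Ppp1r14a, which encodes CPI-17, an inhibitor of myosin phosphatase that keeps myosin light chain phosphorylated, went from 143, 132 and 133 FPKM to 241, 243 and 265 FPKM, a rise of 0.87 (SE 0.059, limma adjusted p = 0.00054). The ages did not overlap in either gene. Lmod1, an actin filament nucleator of smooth muscle, was at 66.95, 62.8 and 65.3 FPKM and then at 113, 105 and 99.997 FPKM (log2 fold change 0.69, SE 0.060, limma adjusted p = 0.001). Pgm5, a phosphoglucomutase-like protein of adherens junctions and dense plaques, was at 142, 125 and 123 FPKM and then at 241, 227 and 201 FPKM (log2 fold change 0.77, SE 0.092, limma adjusted p = 0.0029). Synpo2, an actin-binding protein of the Z-disc and of dense bodies, was at 47.9, 44.3 and 35.4 FPKM and then at 87.8, 78.1 and 79.5 FPKM (log2 fold change 0.94, SE 0.12, limma adjusted p = 0.0038; 0.088 without PW5 replicates 1 and 3).

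Several abundant members did not separate the ages. Acta2, smooth muscle alpha-actin, lay at 5800.5, 5171 and 4965 FPKM at PW1 and 4941, 5322 and 5262 FPKM at PW5, and the ages overlapped, as they did for Actg2. Myl9, the regulatory myosin light chain, lay at 4682, 4068 and 2080.3 FPKM and 4773, 4579.97 and 4097 FPKM, with PW1 replicate 3 the low library. Myh11, the smooth muscle myosin heavy chain, lay at 726, 733 and 608 FPKM and 1306, 544 and 1384 FPKM with a limma adjusted p of 0.36, which became 0.01 without PW5 replicate 2, the low library of its age. Its log2 fold change of 0.53 was 0.046 with the epithelial covariate and -0.334 with PW5 replicates 1 and 3 both left out. Mylk, the myosin light chain kinase, was far less abundant, at 2.23, 2.04 and 1.89 FPKM and 1.09, 0.498 and 1.01 FPKM, with each PW5 library below each PW1 library (limma adjusted p = 0.11; 0.03 without the trend).

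Tmsb10, thymosin beta-10, a small protein that holds actin monomers and is abundant in growing tissue, was at 412, 412 and 399 FPKM at PW1 and 107, 98.3 and 86.6 FPKM at PW5. It fell by 2.06 on the log2 scale (SE 0.083, limma adjusted p = 0.00022), and each PW1 library was over 3-fold above each PW5 library. Its relative Tmsb4x lay at 429, 376 and 435 FPKM and 372, 414 and 432 FPKM, with the ages overlapping. Myh10, the heavy chain of non-muscle myosin IIB, went from 24.97, 27.4 and 27.1 FPKM to 10.9, 10.8 and 9.93 FPKM and fell by 1.25 (SE 0.075, limma adjusted p = 0.00039; 0.14 with all 3 ages in one fit). Cfl1, cofilin 1, which severs actin filaments, went from 339.7, 301 and 342 FPKM to 193, 183 and 185 FPKM and fell by 0.80 (SE 0.065, limma adjusted p = 0.00086). No library of either age crossed into the range of the other for these genes. Actc1, the cardiac alpha-actin that is also made by fetal smooth muscle, went from 76.96, 72.9 and 45.9 FPKM to 6.48, 6.55 and 6.81 FPKM and fell by 3.09 (SE 0.20, limma adjusted p = 0.00051). The 3 PW5 libraries were within 1 FPKM of each other, and PW1 replicate 3 was the lowest of its age.

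Of 18 transcription regulators of smooth muscle tested, 0 rose and 3 fell, beside 9.04% of all genes tested that rose and 16.9% that fell. The median of -0.10 turned to 0.015 after median-of-ratios scaling. The 3 that fell were Heyl, a Notch target, Gata6, a zinc-finger factor of smooth muscle, and Prrx1, a homeobox factor of mesenchyme. Heyl went from 12.7, 14.1 and 13.6 FPKM to 4.25, 4.44 and 4.41 FPKM and fell by 1.43 (SE 0.10, limma adjusted p = 0.0006). Gata6 went from 7.22, 7.66 and 6.08 FPKM to 2.95, 2.72 and 2.52 FPKM and fell by 1.09 (SE 0.16, limma adjusted p = 0.0058; 0.091 with all 3 ages in one fit and 0.065 without PW5 replicates 1 and 3). Prrx1 was at 2.02, 2.56 and 2.36 FPKM at PW1 and at 0, 0.00209 and 0 FPKM at PW5, where 2 libraries were listed at 0 (limma adjusted p = 0.0081; 0.06 with a replicate block). Srf, the factor that binds the CArG box of contractile genes, lay at 37.4, 35.6 and 39.8 FPKM and 52.1, 41.2 and 40.9 FPKM (limma adjusted p = 0.18).

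Genes that set the membrane potential and store calcium rose more often than they fell. Of 25 tested, 10 rose and 2 fell (median 0.41). The count of rises was 5 without PW5 replicate 2 and 5 without PW5 replicate 3. Gja1, the gap junction protein connexin 43, was at 19.4, 19.5 and 19.4 FPKM in the PW1 libraries and 51.1, 58.4 and 49.4 FPKM in the PW5 libraries, a rise of 1.40 (SE 0.075, limma adjusted p = 0.00026). The 3 PW1 mice were almost equal, and all 3 PW5 mice were over 2-fold above them. Kcnmb1, the beta1 subunit that raises the calcium sensitivity of the large-conductance potassium channel, went from 12.1, 11.3 and 10.5 FPKM to 23.4, 26.4 and 22.7 FPKM and rose by 1.03 (SE 0.091, limma adjusted p = 0.0011). Atp2b4, a calcium pump of the plasma membrane, went from 18.9, 17.1 and 15.8 FPKM to 29.2, 28.8 and 30.1 FPKM and rose by 0.73 (SE 0.079, limma adjusted p = 0.0021; 0.055 without PW5 replicates 1 and 3). Pln, phospholamban, which restrains the calcium pump of the sarcoplasmic reticulum, went from 2.46, 1.4996 and 1.57 FPKM to 16.3, 22.2 and 17.5 FPKM and rose by 2.80 (SE 0.20, limma adjusted p = 0.00059). Of the exon bases of Pln, 64.7% also lie in exons of another gene, and the strand of counting is not stated. Casq1, the calsequestrin of fast skeletal muscle, ran the other way, from 16.5, 26.5 and 15.4 FPKM to 3.83, 3.28 and 3.602 FPKM and fell by 2.12 (SE 0.22, limma adjusted p = 0.0018; 0.052 without PW5 replicates 1 and 3), with its highest value in PW1 replicate 2, the library with the high skeletal muscle markers. The part of that tissue in the fall was not tested.

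Of 29 receptors and second-messenger enzymes tested, 3 rose and 4 fell (median 0.12), beside 9.04% and 16.9% of all genes tested that rose and fell, and without PW1 replicate 1 the falls numbered 2. The angiotensin II receptors went in opposite directions. Agtr2, the type 2 receptor of fetal mesenchyme, was at 21.4, 24.8 and 21.2 FPKM at PW1 and 1.72, 2.96 and 3.69 FPKM at PW5 and fell by 2.66 (SE 0.22, limma adjusted p = 0.00094). Agtr1a, the type 1a receptor that drives contraction, was at 8.75, 6.76 and 7.57 FPKM and 15.4, 16.7 and 17.8 FPKM, a rise of 1.02 (SE 0.12, limma adjusted p = 0.0026; 0.056 without PW5 replicates 1 and 3). Agtr2 was the higher of the 2 in every PW1 library and Agtr1a in every PW5 library, in FPKM, which is scaled for transcript length. Tacr2, the neurokinin 2 receptor of gut muscle, went from 5.69, 5.61 and 5.01 FPKM to 10.7, 11.9 and 11.4 FPKM and rose by 0.94 (SE 0.11, limma adjusted p = 0.0026). Pde5a, the phosphodiesterase that ends cyclic GMP signals, went from 41.5, 35.1 and 35.7 FPKM to 71.8, 80.9 and 76.99 FPKM and rose by 1.02 (SE 0.084, limma adjusted p = 0.00092). Ednra, the endothelin A receptor, went from 13.6, 13.3 and 13.04 FPKM to 7.04, 9.31 and 8.47 FPKM and fell by 0.64 (SE 0.12, limma adjusted p = 0.013). Its adjusted p was 0.058 with a replicate block, 0.062 with the epithelial covariate and 0.06 with PW5 replicates 1 and 3 both left out, and its log2 fold change was -0.501 and -0.476 in the latter 2. The M2 muscarinic receptor gene Chrm2 lay at 18.6, 19.6 and 12.3 FPKM and 21.04, 15.97 and 15.8 FPKM, with the ages overlapping.

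Ion channel genes as a group did not move one way. Of 59 tested, 8 rose and 7 fell, beside 9.04% and 16.9% of all genes tested that rose and fell. The median of -0.062 turned to 0.056 after median-of-ratios scaling. The rises numbered 5 without PW1 replicate 2, without PW1 replicate 3, without PW5 replicate 2 or without PW5 replicate 3. Kcne1l, a small KCNE subunit that modulates potassium channels, went from 5.41, 6.71 and 6.2001 FPKM to 0.723, 0.956 and 0.694 FPKM and fell by 1.99 (SE 0.21, limma adjusted p = 0.0018). Kcne4, of the same family, went from 15.1, 14.5 and 15.1 FPKM to 24.02, 20.7 and 22.2 FPKM and rose by 0.55 (SE 0.076, limma adjusted p = 0.0047; 0.096 with all 3 ages in one fit). Cacna2d1, the alpha2delta subunit that brings calcium channels to the membrane, went from 25.4, 23.1 and 23.3 FPKM to 30.97, 33.4 and 32.3 FPKM and rose by 0.41 (SE 0.064, limma adjusted p = 0.0065; 0.051 with a replicate block and 0.056 without PW5 replicates 1 and 3). The ages did not overlap in these 3 genes.

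Interstitial cells of Cajal and PDGFRA-positive cells, the 2 interstitial cell types coupled to the muscle, were present at both ages. Of 6 markers of interstitial cells of Cajal tested, 2 rose and 0 fell, with 3 log2 fold changes positive and 3 negative (median 0.22). With any 1 library left out, 1 of them rose. Of all genes tested, 9.04% rose and 16.9% fell. Kit, the receptor that defines interstitial cells of Cajal, lay at 26.4, 27.8 and 27.2 FPKM at PW1 and 22.3, 25.3 and 23.3 FPKM at PW5 (log2 fold change -0.19, limma adjusted p = 0.09), which did not pass the test although each PW5 library was below each PW1 library. The median of all genes was -0.11 on that scale. After median-of-ratios scaling the log2 fold change of Kit was -0.068, and after quantile normalization -0.091. Prkcq, protein kinase C theta, another marker of interstitial cells of Cajal, went from 1.85, 1.91 and 2.51 FPKM to 9.14, 11.03 and 10.7 FPKM and rose by 1.87 (SE 0.17, limma adjusted p = 0.0011). Ano1, their calcium-activated chloride channel, lay at 1.48, 0.802 and 0.668 FPKM and 4.13, 2.77 and 20.2 FPKM, with PW5 replicate 3 far above the others. Of 3 markers of PDGFRA-positive cells tested, 1 rose and 0 fell, with 2 log2 fold changes positive and 1 negative (median 0.43). The marker that rose, Pdgfra, went from 18.1, 20.4 and 15.5 FPKM to 25.9, 30.1 and 26.1 FPKM and rose by 0.58 (SE 0.12, limma adjusted p = 0.018). Its adjusted p was 0.054 without PW1 replicate 1, 0.054 without PW5 replicate 2, and 0.1 without PW5 replicates 1 and 3.

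Enteric neuron genes fell more often than they rose, and transmitter and neuropeptide genes rose more often. Of 41 enteric neuron genes tested, 5 rose and 19 fell (median -0.47). Of 8 neuron markers, all of them in that list too, 1 rose and 5 fell (median -0.49). Of 18 transmitter and neuropeptide genes, 9 rose and 0 fell (median 0.63). Of 33 neurotrophic ligands and receptors, 3 rose and 10 fell, beside 9.04% and 16.9% of all genes tested that rose and fell. The median of the 33 was -0.16. After median-of-ratios scaling it was -0.044, with 5 rises and 8 falls.

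Crmp1, a collapsin response mediator that guides growth cones, went from 27.9, 26.9 and 28.2 FPKM to 8.98, 9.54 and 9.94 FPKM and fell by 1.45 (SE 0.070, limma adjusted p = 0.00025). Gap43, the growth-associated protein of elongating axons, went from 102, 90.4 and 93.9 FPKM to 52.7, 60.6 and 55.3 FPKM and fell by 0.76 (SE 0.074, limma adjusted p = 0.0016). In both genes all PW5 libraries were below all PW1 libraries. Nefl, the light neurofilament chain, went from 39.6, 36.1 and 40.7 FPKM to 20.2, 20.4 and 21.03 FPKM (log2 fold change -0.88, SE 0.064, limma adjusted p = 0.00064). Ina, alpha-internexin, went from 18.03, 15.7 and 16.5 FPKM to 8.83, 8.61 and 8.305 FPKM (log2 fold change -0.89, SE 0.087, limma adjusted p = 0.0016). Ret, the receptor for GDNF that enteric neurons need, went from 29.7, 28.2 and 29.5 FPKM to 19.8, 20.5 and 19.99 FPKM and fell by 0.52 (SE 0.055, limma adjusted p = 0.002). Pan-neuronal Tubb3, at 112, 99.8 and 113 FPKM and 80.7, 82.1 and 77.7 FPKM, fell by 0.43 (SE 0.063, limma adjusted p = 0.0058; 0.099 without PW5 replicates 1 and 3), so the fall of Crmp1 was larger than that of this general neuronal marker, a difference that was not tested.

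Scg2, secretogranin II of dense-core vesicles, was at 51.003, 41.6 and 49.1 FPKM at PW1 and 117, 136 and 122 FPKM at PW5, a rise of 1.38 (SE 0.098, limma adjusted p = 0.0006). Thy1, a surface protein of mature neurons and of some fibroblasts, went from 21.3, 22.1 and 19.8 FPKM to 47.9, 44.03 and 46.3 FPKM and rose by 1.09 (SE 0.065, limma adjusted p = 0.00038). Both stood over 1.5-fold higher in every PW5 library than in any PW1 library. Among peptides, Gal, galanin, went from 62.1, 54.9 and 68.7 FPKM to 140.2, 136 and 147 FPKM and rose by 1.18 (SE 0.089, limma adjusted p = 0.0007). Tac1, the precursor of the excitatory transmitter substance P, went from 59.9, 57.6 and 63.8 FPKM to 134, 171 and 119 FPKM and rose by 1.20 (SE 0.14, limma adjusted p = 0.0026). Grp, gastrin-releasing peptide, went from 31.4, 21.3 and 31.001 FPKM to 67.6, 80.6 and 75.8 FPKM and rose by 1.41 (SE 0.16, limma adjusted p = 0.0027; 0.059 without PW5 replicates 1 and 3). The ages did not overlap for these peptides. Vip, the relaxing peptide of inhibitory motor neurons, went from 48.04, 48.8 and 55.1 FPKM to 86.5, 85.7 and 82.1 FPKM and rose by 0.73 (SE 0.066, limma adjusted p = 0.0012). Dbh, dopamine beta-hydroxylase of noradrenaline synthesis, was low at both ages, at 1.93, 1.8003 and 1.96 FPKM and 6.38, 5.82 and 5.87 FPKM (log2 fold change 1.28, SE 0.16, limma adjusted p = 0.0036; 0.063 without PW5 replicates 1 and 3).

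Glial genes went both ways. Of 27 genes of enteric glia and Schwann cells tested, 9 rose and 6 fell (median 0.50, and -0.105 without PW1 replicate 1). S100b, the calcium-binding protein that marks mature glia, went from 7.82, 6.75 and 7.003 FPKM to 20.1, 23.1 and 24.2 FPKM and rose by 1.52 (SE 0.10, limma adjusted p = 0.00055). Cdh19, a cadherin of the glial lineage, went from 4.29, 4.87 and 2.67 FPKM to 19.05, 22.5 and 22.02 FPKM and rose by 2.19 (SE 0.20, limma adjusted p = 0.0012). Ngfr, the p75 receptor of neural crest progenitors, went from 22.99, 23.7 and 24.6 FPKM to 16.3, 14.4 and 15.1 FPKM and fell by 0.61 (SE 0.072, limma adjusted p = 0.0029). For all 3 the ages were apart. The glial gene Sox10 was uneven within PW1, at 0.858, 23.8 and 26.4 FPKM with replicate 1 low, against 14.8, 14.4 and 13.6 FPKM at PW5.

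**Figure D2:**
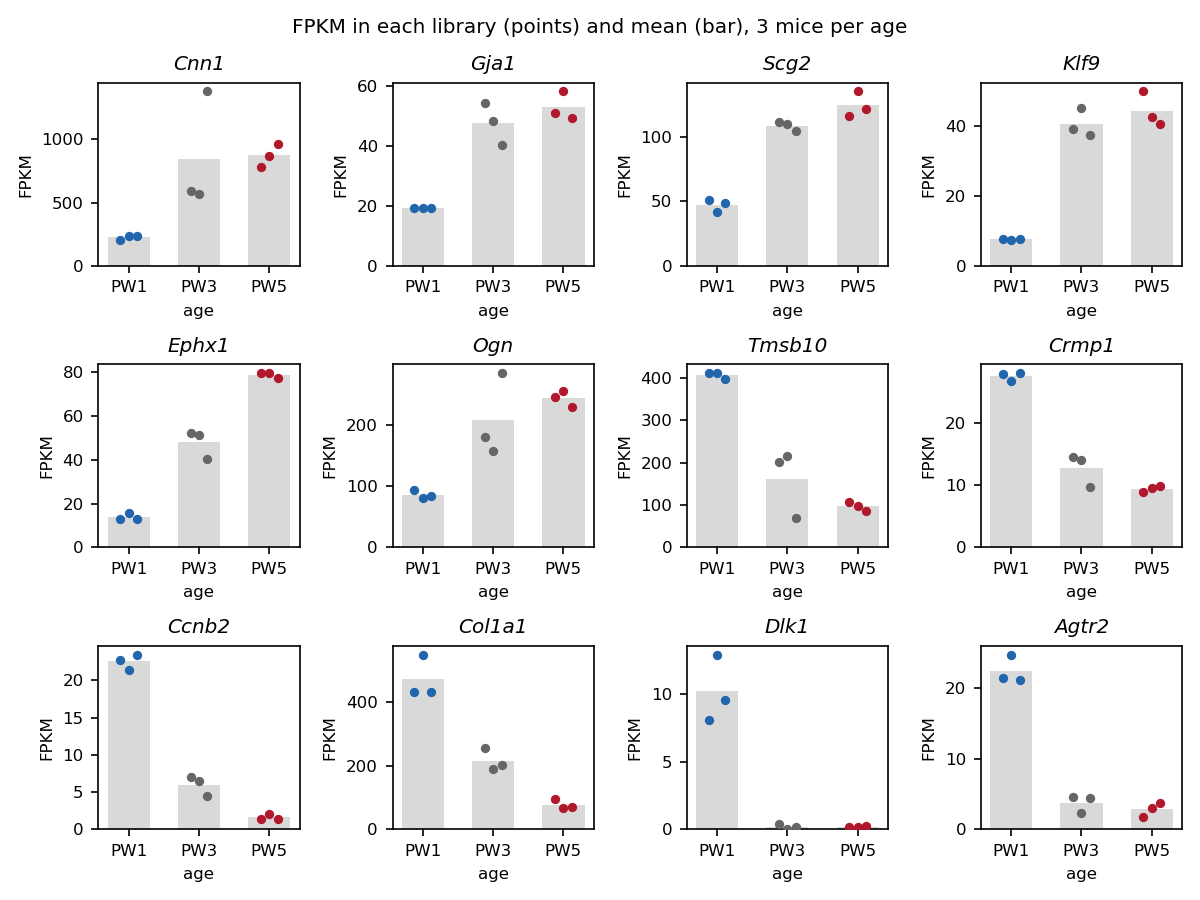
FPKM of 12 genes in each library of PW1, PW3 and PW5, 3 mice per age, on linear axes from 0. Each point is 1 library and the bar is the mean of the age. Cnn1, Gja1, Scg2, Klf9, Ephx1 and Ogn are higher, and Tmsb10, Crmp1, Ccnb2, Col1a1, Dlk1 and Agtr2 lower, in every PW5 library than in every PW1 library.

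Most genes of the dividing cell were lower at PW5. Of 74 cell division genes tested 64 fell and 1 rose (median -2.06), and of 51 DNA replication genes 41 fell and 0 rose (median -1.57). Nuf2, a subunit of the NDC80 complex that ties kinetochores to microtubules, was at 12.1, 12.2 and 13.5 FPKM in the PW1 libraries and at 0, 0.0861 and 0 FPKM in the PW5 libraries, 2 of which were listed at 0, while PW3 stood between them at 4.23, 2.89 and 3.78 FPKM. Ccnb2, cyclin B2 of mitotic entry, went from 22.8, 21.4 and 23.5 FPKM to 1.32, 2.03 and 1.36 FPKM and fell by 3.21 (SE 0.15, limma adjusted p = 0.00025). Cdc20, the activator of the anaphase-promoting complex, went from 23.5, 25.6 and 25.5 FPKM to 2.43, 1.899 and 1.86 FPKM and fell by 3.08 (SE 0.12, limma adjusted p = 0.00022). The lowest PW1 library was over 8-fold above the highest PW5 library in both cyclin B2 and Cdc20. Rrm2, the ribonucleotide reductase subunit that makes deoxynucleotides, went from 30.4, 29.2 and 35.03 FPKM to 3.71, 2.36 and 2.66 FPKM and fell by 3.07 (SE 0.16, limma adjusted p = 0.00025). Uhrf1, which brings maintenance methylation to new DNA, went from 10.4, 12.8 and 11.6 FPKM to 0.439, 0.49 and 0.686 FPKM and fell by 3.03 (SE 0.19, limma adjusted p = 0.00042). The 1 cell division gene that rose was Pttg1, securin, from 11.4, 11.2 and 11.3 FPKM to 26.2, 26.1 and 20.5 FPKM (log2 fold change 1.03, SE 0.11, limma adjusted p = 0.0021). Its 3 PW5 libraries were all above 20 FPKM and its PW1 libraries all under 12.

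Cell cycle control genes did not move as a group, with 4 rises and 8 falls among 30 tested (median 0.003). Without PW1 replicate 3 these were 6 and 4. Of all genes tested, 9.04% rose and 16.9% fell. Ccng1, cyclin G1, a p53 target, went from 18.4, 17.2 and 15.96 FPKM to 32.2, 34.1 and 31.5 FPKM and rose by 0.89 (SE 0.074, limma adjusted p = 0.00094). Cdkn2c, the inhibitor p18 that binds CDK4 and CDK6, went from 22.7, 22.8 and 25.2 FPKM to 11.7, 10.9 and 10.8 FPKM and fell by 1.02 (SE 0.077, limma adjusted p = 0.00069). Of 28 genes of DNA methylation and chromatin, 11 fell and 0 rose (median -0.64). Lmnb1, lamin B1 of the nuclear lamina, went from 31.1, 33.9 and 36.1 FPKM to 3.05, 2.86 and 3.66 FPKM and fell by 3.05 (SE 0.11, limma adjusted p = 0.00019). The ages were apart in each of these genes.

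Promoter windows of these genes were searched for motifs known to time cell cycle transcription. The windows are RefSeq sequences of build GRCm38.p6, 300 bases long and reaching just past a transcript start, and 7770 of the genes tested had at least 1, with 10086 windows in all. TTTGAA, the cell cycle homology region bound by the DREAM and MuvB complexes, was searched on both strands, so TTCAAA counts as well. It stood in 43 of 66 windows of 60 cell division genes, or 65.2%, in 14.9% of the 47 windows of 39 DNA replication genes and in 11.5% of the windows of all genes tested. CCAAT or its complement ATTGG, the box bound by NF-Y, stood in 75.8%, 57.4% and 37.5% of the same windows. Both motifs together stood in 54.5%, 10.6% and 4.77%. TTTCGCGC or TTTGGCGC, letters bound by E2F factors, or their complements stood in 4.55%, 23.4% and 1.46%. The share with TTTGAA was the highest in cell division genes and the share with the E2F letters the highest in DNA replication genes. The lists were not chosen by motif, a match does not show that a factor binds there, and no test was made.

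**Figure D3:**
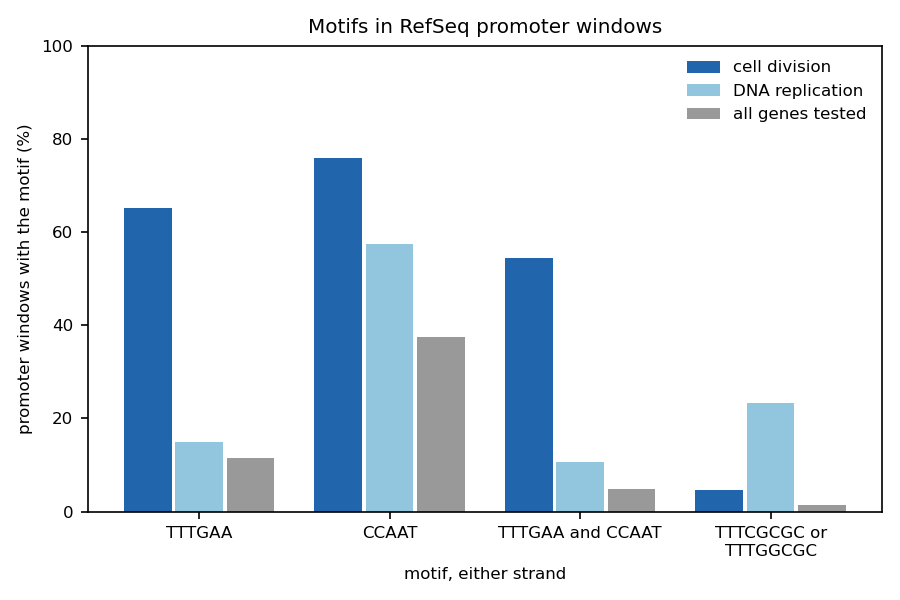
Share of RefSeq promoter windows that hold each motif on either strand, for cell division genes, DNA replication genes and all genes tested. Bars start at 0 and are percent of windows; TTTGAA stands in 65.2% of cell division windows against 11.5% of all windows.

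The windows printed here show how the motifs lie, in the 2 genes of each list with the largest falls whose window holds them. For cell division both TTTGAA and CCAAT were required, for DNA replication the E2F letters. Windows on 1 chromosome were left out of this choice. Uhrf1 has 2 windows and Lig1 has 3, and the first that holds the E2F letters is printed. Every motif searched is in capitals, with no overlap between different motifs (in Ube2c 1 pair of CCAAT boxes on opposite strands shares bases). Ube2c, the ubiquitin-conjugating enzyme of the anaphase-promoting complex, is given at chr2:164769679-164769978 on the plus strand and Ccnb2 at chr9:70421505-70421804 on the minus strand. In Ccnb2, 3 CCAAT boxes lie at even spacing before the last TTTGAA, near the transcript start. Uhrf1 is given at chr17:56304063-56304362 on the plus strand and Lig1, the ligase that joins Okazaki fragments, at chr7:13278576-13278875 on the plus strand.
Ube2c: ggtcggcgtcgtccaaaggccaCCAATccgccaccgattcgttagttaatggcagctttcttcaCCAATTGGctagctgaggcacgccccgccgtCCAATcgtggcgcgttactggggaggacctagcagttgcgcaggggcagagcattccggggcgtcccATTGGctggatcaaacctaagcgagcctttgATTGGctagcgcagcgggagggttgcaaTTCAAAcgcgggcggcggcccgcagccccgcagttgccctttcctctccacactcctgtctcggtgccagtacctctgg
Ccnb2: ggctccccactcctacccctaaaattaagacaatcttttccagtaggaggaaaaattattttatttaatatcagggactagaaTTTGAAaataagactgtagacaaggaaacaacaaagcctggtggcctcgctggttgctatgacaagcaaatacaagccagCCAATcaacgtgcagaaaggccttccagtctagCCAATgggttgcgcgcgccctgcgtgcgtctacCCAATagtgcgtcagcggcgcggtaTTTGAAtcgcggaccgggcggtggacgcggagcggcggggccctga
Uhrf1: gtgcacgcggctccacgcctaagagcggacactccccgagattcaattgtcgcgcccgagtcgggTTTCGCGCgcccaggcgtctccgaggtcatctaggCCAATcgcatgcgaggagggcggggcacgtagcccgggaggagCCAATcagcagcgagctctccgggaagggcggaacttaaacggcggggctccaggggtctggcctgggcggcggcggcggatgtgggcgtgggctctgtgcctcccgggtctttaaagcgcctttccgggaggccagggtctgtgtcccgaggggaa
Lig1: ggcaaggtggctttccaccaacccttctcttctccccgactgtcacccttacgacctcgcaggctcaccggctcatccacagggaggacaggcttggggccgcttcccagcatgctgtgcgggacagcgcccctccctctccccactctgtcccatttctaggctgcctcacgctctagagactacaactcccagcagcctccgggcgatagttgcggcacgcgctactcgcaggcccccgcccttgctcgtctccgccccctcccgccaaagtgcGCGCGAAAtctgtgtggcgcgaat

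Imprinted and fetal genes fell more often than they rose. Of 28 imprinted genes tested, 11 fell and 2 rose (median -0.58), and after median-of-ratios scaling 10 fell and 4 rose. Of 12 fetal RNA-binding proteins and chromatin factors, 9 fell and 0 rose (median -1.57). Among all genes tested 16.9% fell and 9.04% rose. Dlk1, a paternally expressed Notch-like ligand of progenitor cells, was at 8.12, 12.9 and 9.55 FPKM at PW1 and 0.12, 0.153 and 0.198 FPKM at PW5 and fell by 3.25 (SE 0.24, limma adjusted p = 0.00066). It had left the PW1 range by PW3, at 0.368, 0 and 0.138 FPKM. The log2 fold change of Dlk1 was -5.311 with a pseudocount of 0.1 in place of 1, so its size depends on the pseudocount. Mest, a paternally expressed hydrolase-like gene, went from 88.1, 110.3 and 92.8 FPKM to 20.7, 26.3 and 26.4 FPKM and fell by 1.95 (SE 0.13, limma adjusted p = 0.00051). Igf2r, the maternally expressed receptor that clears IGF2, went from 20.3, 23.6 and 19.5 FPKM to 9.82, 9.76 and 9.79 FPKM and fell by 1.03 (SE 0.093, limma adjusted p = 0.0012). Grb10, an adaptor that restrains insulin and IGF receptor signals, was among those that rose, from 2.896, 1.55 and 3.18 FPKM to 19.2, 20.01 and 19.8 FPKM, a rise of 2.58 (SE 0.21, limma adjusted p = 0.00088). All 3 PW5 mice were near 20 FPKM and all 3 PW1 mice under 4 FPKM. Tead2, a TEAD factor of embryonic tissue, went from 20.6, 25.8 and 25.3 FPKM to 5.097, 5.33 and 4.602 FPKM and fell by 2.05 (SE 0.12, limma adjusted p = 0.00037). Sox11, a factor of immature neurons and mesenchyme, went from 3.49, 3.37 and 3.62 FPKM to 0.214, 0.377 and 0.462 FPKM and fell by 1.74 (SE 0.24, limma adjusted p = 0.0048).

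Binding proteins of the insulin-like growth factors went both ways. Of 19 genes of that axis tested, 6 rose and 7 fell (median -0.61). Igfbp5 was at 90.5, 103 and 85.3 FPKM at PW1 and 36.8, 40.7 and 40.99 FPKM at PW5 and fell by 1.21 (SE 0.088, limma adjusted p = 0.00062). Igfbp6, which prefers IGF2, was at 44.3, 43.2 and 41.7 FPKM and 109, 101 and 104 FPKM, a rise of 1.26 (SE 0.050, limma adjusted p = 0.00022). Igfbp5 was above Igfbp6 in each PW1 library and below it in each PW5 library. Igfbp3 fell too, from 60.8, 78.3 and 43.5 FPKM to 14.8, 10.9 and 11.7 FPKM (log2 fold change -2.17, SE 0.23, limma adjusted p = 0.0021). Htra1, a secreted protease that cuts these binding proteins, rose from 24.3, 24.4 and 26.7 FPKM to 54.8, 56.5 and 58.2 FPKM (log2 fold change 1.14, SE 0.059, limma adjusted p = 0.00025).

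Fibrillar collagen and elastic fibre genes fell more often than they rose, while proteoglycans and matrix glycoproteins went both ways. Of 21 collagen genes tested, 6 fell and 1 rose (median -1.12). Of 18 elastic fibre genes, 12 fell and 2 rose (median -0.90), and 1 rose without PW1 replicate 3, PW5 replicate 2 or PW5 replicate 3. Of 31 basement membrane genes, 12 fell and 3 rose (median -0.32). Of 43 proteoglycans and matrix glycoproteins, 15 rose and 12 fell (median 0.12). Beside these lists, 9.04% of all genes tested rose and 16.9% fell, so falls outnumbered rises among all genes too.

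Col1a1, the alpha1 chain of collagen I, was at 432, 549.7 and 432 FPKM in the PW1 libraries and 95.2, 65.3 and 70.5 FPKM in the PW5 libraries and fell by 2.61 (SE 0.17, limma adjusted p = 0.00051). PW3, at 255, 188 and 201 FPKM, lay between the 2 ages without touching either. Col3a1, which forms thinner fibrils with collagen I, went from 753, 841 and 758 FPKM to 293, 265 and 252 FPKM and fell by 1.54 (SE 0.080, limma adjusted p = 0.00025). Lox, lysyl oxidase, which cross-links collagen and elastin, went from 30.3, 33.2 and 28.5 FPKM to 3.79, 3.91 and 3.57 FPKM and fell by 2.73 (SE 0.094, limma adjusted p = 0.00016). All PW5 libraries of both genes were below all PW1 libraries. Mfap2, a microfibril component, went from 141, 151 and 142 FPKM to 16.4, 9.54 and 10.7 FPKM and fell by 3.50 (SE 0.19, limma adjusted p = 0.00028). Eln, elastin itself, differed widely among PW1 mice, at 111, 443 and 297 FPKM, and was at 38.5, 20.99 and 32.3 FPKM at PW5 (log2 fold change -3.001, SE 0.54, limma adjusted p = 0.011; 0.053 with a replicate block and 0.11 without PW5 replicates 1 and 3). Nid2, nidogen 2, which links laminin to collagen IV, went from 20.03, 25.1 and 20.4 FPKM to 3.397, 2.95 and 2.89 FPKM and fell by 2.48 (SE 0.13, limma adjusted p = 0.00025). Col6a1, a chain of the beaded collagen VI, was the 1 collagen of the list that rose, from 22.2, 31.8 and 28.2 FPKM to 65.2, 103 and 113 FPKM (log2 fold change 1.71, SE 0.24, limma adjusted p = 0.0049; 0.45 with all 3 ages in one fit).

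Ogn, osteoglycin, a small leucine-rich proteoglycan that binds collagen fibrils, was at 93.9, 80.3 and 83.8 FPKM at PW1 and 246, 255 and 228 FPKM at PW5, a rise of 1.49 (SE 0.077, limma adjusted p = 0.00025). Aspn, asporin, of the same family, went from 72.1, 71.8 and 67.5 FPKM to 205, 209 and 228 FPKM and rose by 1.59 (SE 0.058, limma adjusted p = 0.00019). Prelp, which anchors basement membranes to connective tissue, went from 25.1, 28.5 and 27.6 FPKM to 92.2, 78.3 and 88.5 FPKM and rose by 1.64 (SE 0.083, limma adjusted p = 0.00025). The libraries of the 2 ages were more than 2-fold apart in all 3 genes. Dcn, decorin, went from 362, 406 and 366 FPKM to 509, 531 and 493 FPKM, a small rise of 0.44 (SE 0.066, limma adjusted p = 0.0064; 0.13 with all 3 ages in one fit and 0.073 without PW5 replicates 1 and 3). Biglycan, Bgn, at 90.9, 109 and 90.6 FPKM and 108, 98.9 and 102 FPKM, overlapped. Ccn3, a matricellular protein of developing tissue, fell instead, from 18.3, 23.1 and 17.99 FPKM to 2.51, 2.16 and 1.87 FPKM (log2 fold change -2.71, SE 0.15, limma adjusted p = 0.00033). Ptn, the heparin-binding growth factor pleiotrophin, fell from 401, 371 and 358 FPKM to 235, 268 and 215 FPKM (log2 fold change -0.66, SE 0.096, limma adjusted p = 0.0055; 0.064 without PW5 replicates 1 and 3). Mgp, matrix Gla protein, which keeps soft tissue from calcifying, went from 151, 161 and 150.5 FPKM to 425, 409.7 and 371 FPKM and rose by 1.37 (SE 0.067, limma adjusted p = 0.00025). Of the tissue inhibitors of metalloproteinases, Timp3 rose from 70.6, 66.9 and 68.4 FPKM to 147, 145 and 133 FPKM (log2 fold change 1.03, SE 0.054, limma adjusted p = 0.00025) and Timp1 fell from 8.68, 8.54 and 10.3 FPKM to 2.45, 2.39 and 1.68 FPKM (log2 fold change -1.69, SE 0.18, limma adjusted p = 0.002). Of Timp3, 21.3% of exon bases lie in exons of another gene.

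Wnt pathway genes went both ways. Of 29 Wnt pathway genes tested, 5 rose and 6 fell (median -0.42), beside 9.04% and 16.9% of all genes tested that rose and fell. Sfrp2, a secreted Wnt antagonist of embryonic mesenchyme, was at 52.9, 56.7 and 55.5 FPKM at PW1 and 7.39, 8.58 and 7.76 FPKM at PW5 and fell by 2.66 (SE 0.075, limma adjusted p = 0.0001). Sfrp5, of the same family, ran the other way, from 2.703, 3.02 and 3.04 FPKM to 10.2, 7.995 and 11.8 FPKM, a rise of 1.48 (SE 0.18, limma adjusted p = 0.0029; 0.059 without PW5 replicates 1 and 3). Frzb, also a secreted Frizzled-like antagonist, went from 7.54, 7.89 and 7.11 FPKM to 13.3, 17.1 and 15.9 FPKM and rose by 0.94 (SE 0.12, limma adjusted p = 0.0034). Sfrp2 was above both relatives in every PW1 library, and Frzb was above Sfrp2 in every PW5 library. Of 39 genes of the BMP and TGF-beta pathways, 5 rose and 10 fell (median -0.31), to be set beside the same 9.04% and 16.9%. After median-of-ratios scaling 5 rose and 7 fell. On the deposited scale the falls numbered 5 without PW1 replicate 3 and 6 without PW1 replicate 1 or PW5 replicate 1. Gdf5, a BMP-like ligand of joint and mesenchyme development, went from 13.3, 13.1 and 11.1 FPKM to 1.12, 0.865 and 0.634 FPKM and fell by 2.85 (SE 0.18, limma adjusted p = 0.0005), with 40.3% of its exon bases shared with another gene. Of 12 Notch pathway genes, 6 fell and 0 rose (median -0.80). Notch3, the Notch receptor of mural cells, went from 3.53, 5.35 and 4.41 FPKM to 0.782, 0.542 and 0.369 FPKM and fell by 1.79 (SE 0.26, limma adjusted p = 0.0054; 0.055 without PW5 replicates 1 and 3).

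Retinoid genes went both ways, and the genes named here rose. Adh1, an alcohol dehydrogenase that oxidizes retinol and ethanol, went from 3.16, 4.96 and 5.19 FPKM to 51.4, 53.2 and 47.2 FPKM and rose by 3.27 (SE 0.17, limma adjusted p = 0.00025). Aldh1a2, which makes retinoic acid, went from 10.6, 9.79 and 9.62 FPKM to 15.96, 17.1 and 20.02 FPKM and rose by 0.76 (SE 0.11, limma adjusted p = 0.0049). Neither overlapped between the ages. Of 16 retinoid genes tested, 4 rose and 3 fell, with a median of -0.021 that turned to 0.093 after median-of-ratios scaling. The falls numbered 1 without PW1 replicate 3.

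Genes of glucocorticoid and thyroid hormone action rose more often than they fell. Of 24 genes of that list tested, 13 rose and 2 fell (median 1.10). Klf9, a zinc-finger factor induced by both hormones, was at 7.74, 7.25 and 7.73 FPKM in the PW1 libraries and 49.97, 42.6 and 40.5 FPKM in the PW5 libraries, a rise of 2.40 (SE 0.096, limma adjusted p = 0.00022). The PW3 libraries, at 39.2, 45.2 and 37.3 FPKM, were close to PW5. Tsc22d3, the glucocorticoid-induced leucine zipper, went from 15.9, 14.998 and 14.8 FPKM to 50.6, 45.2 and 44.05 FPKM and rose by 1.55 (SE 0.074, limma adjusted p = 0.00025). Fkbp5, a co-chaperone of the glucocorticoid receptor, went from 4.74, 4.65 and 5.34 FPKM to 21.6, 18.1 and 23.8 FPKM and rose by 1.90 (SE 0.13, limma adjusted p = 0.00054). In both, the lowest PW5 library was over 2-fold above the highest PW1 library. Hsd11b1, which turns inactive 11-keto steroid into active hormone inside the cell, was at 0.0582, 0.193 and 0 FPKM at PW1, where replicate 3 was listed at 0, and at 7.84, 10.2 and 10.2 FPKM at PW5 (limma adjusted p = 0.00055). Nr3c1, the glucocorticoid receptor, lay at 8.53, 7.99 and 9.32 FPKM and 8.38, 13.3 and 9.04 FPKM (log2 fold change 0.20, limma adjusted p = 0.48), with the ages overlapping. Its log2 fold change was 0.416 with the epithelial covariate and 0.575 with PW5 replicates 1 and 3 both left out. Thra, the thyroid hormone receptor alpha, went from 50.5, 49.1 and 45.96 FPKM to 28.3, 24.3 and 25.8 FPKM and fell by 0.87 (SE 0.075, limma adjusted p = 0.001). Dbp, an output factor of the circadian clock, went from 12.3, 12.8 and 12.5 FPKM to 64.3, 54.3 and 44.9 FPKM and rose by 2.02 (SE 0.13, limma adjusted p = 0.00051). The hour of sampling is not stated. Of 16 clock genes, 5 rose and 3 fell (median 0.56). The rises numbered 2 without PW1 replicate 2 and 3 without any one of PW1 replicates 1 and 3 and PW5 replicates 2 and 3.

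Immune genes of antigen presentation and of the interferon response rose more often than they fell. All 7 MHC class II genes tested had a positive log2 fold change and 6 rose (median 2.12). Of 33 interferon-stimulated genes, 15 rose and 0 fell (median 1.11). Of 17 genes of MHC class I and antigen processing, 7 rose and 1 fell (median 0.78). H2-Aa, the class II alpha chain, was at 4.18, 4.63 and 6.31 FPKM at PW1 and 23.9, 25.8 and 33.6 FPKM at PW5, a rise of 2.25 (SE 0.19, limma adjusted p = 0.00093). Cd74, the invariant chain that escorts class II molecules, went from 6.65, 7.83 and 12.3 FPKM to 39.2, 38.6 and 74.7 FPKM and rose by 2.35 (SE 0.33, limma adjusted p = 0.0049; 0.061 without PW5 replicates 1 and 3). PW5 replicate 3 was the highest library for both, and the same library held the high values of the 2 lymphocyte markers of 10 that are in the table, which summed to 0, 0.475 and 0.194 FPKM at PW1 and 0.152, 0 and 11.01 FPKM at PW5, with Cd79b the most abundant and 1, 2 and 0 of the 2 listed at 0 in the PW5 libraries. Their part in the result was not tested. B2m, the light chain of class I, went from 234, 222 and 289 FPKM to 513, 585 and 549.5 FPKM and rose by 1.15 (SE 0.11, limma adjusted p = 0.0016). Ifit3, an interferon-induced antiviral protein, went from 1.77, 1.54 and 1.9995 FPKM to 27.9, 26.1 and 26.98 FPKM and rose by 3.34 (SE 0.11, limma adjusted p = 0.00016). Its near-identical neighbour Ifit3b moved with it, at 0.548, 0.703 and 0.88 FPKM and 13.4, 14.7 and 13.6 FPKM, and reads cannot always be told apart between such copies.

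Macrophage and complement genes went both ways, with more rises than falls. Of 18 macrophage genes tested, 8 rose and 1 fell (median 0.55), and 4 rose without PW5 replicate 2. Without PW1 replicate 3, PW5 replicate 1 or PW5 replicate 3 the rises numbered 5. Csf1r, the receptor that macrophages depend on, lay at 2.005, 6.34 and 6.21 FPKM and 5.405, 0.773 and 5.87 FPKM, and C1qa at 11.2, 14.3 and 12.1 FPKM and 16.3, 17.8 and 13.6 FPKM, with the ages overlapping in both. Retnla, a secreted protein of alternatively activated macrophages, went from 1.34, 0.752 and 1.63 FPKM to 18.5, 23.8 and 23.7 FPKM and rose by 3.37 (SE 0.21, limma adjusted p = 0.00042). Lyz2, lysozyme of macrophages and neutrophils, went from 30.4, 32.1 and 30.7 FPKM to 75.8, 76.6 and 84.2 FPKM and rose by 1.31 (SE 0.059, limma adjusted p = 0.00025). Pf4, platelet factor 4, also made by young tissue macrophages, went from 16.96, 19.04 and 18.7 FPKM to 7.35, 5.71 and 6.69 FPKM and fell by 1.35 (SE 0.12, limma adjusted p = 0.001). Of 19 complement and coagulation genes, 7 rose and 3 fell (median 0.74). The falls numbered 0 without PW1 replicate 3 and 1 without PW1 replicate 1, PW1 replicate 2 or PW5 replicate 3. C3, the central complement component, went from 7.14, 12.1 and 14.6 FPKM to 67.02, 72.9 and 72.3 FPKM and rose by 2.60 (SE 0.24, limma adjusted p = 0.0013; 0.051 without PW5 replicates 1 and 3). Serping1, the C1 inhibitor, went from 53.4, 51.2 and 57.5 FPKM to 149, 177 and 171 FPKM and rose by 1.60 (SE 0.083, limma adjusted p = 0.00025). Both complement genes separated the ages over 2-fold.

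Genes of detoxification rose more often than they fell. Of 58 xenobiotic and retinol oxidation enzymes tested, 18 rose and 1 fell (median 0.82), and without PW5 replicate 2, the PW5 library with few epithelial transcripts, 29 rose. Ephx1, microsomal epoxide hydrolase, was at 13.01, 15.6 and 13.1 FPKM at PW1 and 79.5, 79.3 and 77.3 FPKM at PW5, a rise of 2.43 (SE 0.081, limma adjusted p = 0.00016). PW5 replicate 2 stood level with replicates 1 and 3. Gstm1, a glutathione transferase with close paralogues, went from 33.99, 31.4 and 38.998 FPKM to 108, 92.1 and 93.8 FPKM and rose by 1.47 (SE 0.10, limma adjusted p = 0.00059). Pdk4, which switches pyruvate away from oxidation, went from 4.87, 5.77 and 4.26 FPKM to 17.8, 14.4 and 17.3 FPKM and rose by 1.55 (SE 0.14, limma adjusted p = 0.0013). Of 30 antioxidant and metal-binding genes, 8 rose and 5 fell (median 0.34), and without PW5 replicate 1 5 rose. Fth1, the ferritin heavy chain, one of the most abundant genes here, went from 570.2, 556 and 587 FPKM to 1551, 1441 and 1684 FPKM and rose by 1.44 (SE 0.078, limma adjusted p = 0.00026). Gpx3, secreted glutathione peroxidase, went from 31.9, 35.6 and 36.8 FPKM to 97.8, 90.2 and 88.9 FPKM and rose by 1.39 (SE 0.073, limma adjusted p = 0.00025).

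Of 87 genes of oxidative phosphorylation tested, 27 fell and 2 rose, beside 16.9% and 9.04% of all genes tested that fell and rose. Falls were thus more frequent than among all genes, while the median of -0.14 was close to the -0.11 of all genes. After median-of-ratios scaling the median of the 87 became -0.015, with 21 falls and 4 rises. Cox8a, a small subunit of cytochrome oxidase, went from 526, 497 and 547 FPKM to 328, 337 and 327 FPKM and fell by 0.66 (SE 0.054, limma adjusted p = 0.00089).

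Blood vessel genes fell more often than they rose. Of 23 blood vessel genes tested, 10 fell and 2 rose (median -0.72), beside 16.9% and 9.04% of all genes tested that fell and rose. Apln, apelin, a ligand made by endothelial tip cells, was at 5.94, 6.41 and 8.96 FPKM at PW1 and 0.21, 0.304 and 0.323 FPKM at PW5 and fell by 2.65 (SE 0.24, limma adjusted p = 0.0012). With a pseudocount of 0.1 in place of 1 the log2 fold change of Apln was -4.24. Its receptor gene Aplnr went from 6.65, 8.89 and 7.32 FPKM to 1.22, 0.821 and 0.688 FPKM and fell by 2.18 (SE 0.22, limma adjusted p = 0.0017). Both were lower in every PW5 library. Of 5 markers of endothelium 3 fell and 0 rose (median -0.84), and they summed to 37.9, 47.6 and 51.9 FPKM at PW1 and 26.96, 26.3 and 25.3 FPKM at PW5. Pecam1 among them overlapped, at 11.4, 10.6 and 17.1 FPKM and 10.997, 11.3 and 11.7 FPKM. The 2 members of the blood vessel list that rose were Rgs5 and Ccl21a. Rgs5, a regulator of G-protein signalling found in pericytes and muscle, went from 75.9, 72.2 and 78.5 FPKM to 540.4, 579 and 617 FPKM (log2 fold change 2.92, SE 0.065, limma adjusted p = 5.8e-05). It was the most abundant of the list, whose sum was 308, 377 and 353 FPKM at PW1 and 792, 802 and 812 FPKM at PW5. Ccl21a, a chemokine of lymphatic endothelium, went from 46.3, 44.4 and 55.1 FPKM to 96.6, 89.9 and 76.6 FPKM and rose by 0.84 (SE 0.12, limma adjusted p = 0.005; 0.053 without PW5 replicates 1 and 3).

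Among the largest differences outside these groups, Ctla2a, a cysteine protease inhibitor, was at 2.19, 3.19 and 2.45 FPKM at PW1 and 70.3, 38.1 and 35.9 FPKM at PW5, a rise of 3.71 (SE 0.28, limma adjusted p = 0.00071). Slpi, an inhibitor of neutrophil elastase, went from 0.338, 0.438 and 1.05 FPKM to 14.3, 19.2 and 22.8 FPKM and rose by 3.62 (SE 0.26, limma adjusted p = 0.00061). Klf10, a factor induced by TGF-beta, went from 0.824, 0.814 and 0.83 FPKM to 14.3, 14.2 and 12.1 FPKM and rose by 2.99 (SE 0.16, limma adjusted p = 0.00025). The ages were far apart in all 3, and at PW3 Klf10 was high in replicate 3 only (0.771, 0.708 and 10.4 FPKM). Marcksl1, a substrate of protein kinase C that shapes actin at the membrane, went from 110.1, 105 and 117 FPKM to 10.7, 9.76 and 14.5 FPKM and fell by 3.16 (SE 0.15, limma adjusted p = 0.00025). Phb2, prohibitin 2 of the inner mitochondrial membrane, went from 39.9, 25.9 and 20.7 FPKM to 2.21, 2.64 and 1.598 FPKM and fell by 3.21 (SE 0.27, limma adjusted p = 0.00095). Some large rises rested on uneven libraries. Rab5b, an endosomal GTPase, was at 1.895, 1.77 and 1.64 FPKM at PW1 and 53.8, 5.91 and 45.8 FPKM at PW5, and Lgals3, galectin 3, at 3.32, 3.605 and 7.73 FPKM and 89.4, 11.9 and 58.1 FPKM, both low in PW5 replicate 2 like the epithelial markers, whose part in these rises was not tested.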

How the data were processed

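RNA of colon with the mucosa stripped was sequenced from 3 mice per age, with libraries from the NEBNext Ultra II RNA kit. The authors used Trimmomatic for trimming, HISAT2 for alignment against GRCm38.p6 and StringTie for gene FPKM; their versions, the annotation release, the filters and whether reads were counted by strand are not stated. The deposited FPKM table was used as given, and its values equal those of the 9 single-library tables of the series. Symbols, positions and exon overlap come from GENCODE M21 for GRCm38, and promoter windows from RefSeq.

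PW5 was compared with PW1 on log2(FPKM + 1) in limma 3.58.1 (R 4.3.3, lmFit and eBayes with a trend, two-sided, no covariate). Benjamini-Hochberg adjustment was over all 9875 genes with a symbol whose mean in these 6 libraries reached 0.5 FPKM. An exact permutation test of 3 against 3 mice cannot give a p under 0.1, so none is given. Tables and figures were made with Python 3.11.15, pandas 2.3.3, numpy 2.4.6 and matplotlib 3.10.9. The fit was tested on simulated data.

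Gene lists were written by hand, and they and the members were chosen with earlier results of these data known. A list is described by its counts in each direction and its median, with no test of the list. Named genes are the 25 largest rises and the 25 largest falls among genes called whose libraries do not overlap, any member of a list with at most 30 members tested, in longer lists the 10 members with the highest mean FPKM and the 10 called with the largest log2 fold change in size, and genes the study names. Alternatives changed the pseudocount, the filter on low values, the scaling of libraries, the trend, the libraries in the fit and a replicate block. The series' other measurements and PW3 as a test group were not used here. Results of some genes are not reported here.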

Additional observations from a re-analysis of the deposited data

How the results depend on the processing

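Of the 115 named genes with a limma adjusted p under 0.05 whose fold change or p is printed, all kept their direction under each change of pseudocount, filter, scaling, trend or libraries, with the block and in both fits chosen after seeing the data. They also stayed past the threshold with a pseudocount of 0.1, with no filter on low values, with a filter at a mean of 1 FPKM, under each of the 3 scalings (same total FPKM, median-of-ratios, quantile) and without the trend. With all 3 ages in one fit 5 of them no longer passed (Col6a1, Dcn, Gata6, Kcne4 and Myh10), and the cause was not tested. With 1 library left out, Pdgfra alone was lost, and the Myh11 call appeared without PW5 replicate 2. Mylk, not called otherwise, was called as lower without the trend.

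The replicate numbers of the labels belong to different mice at each age. Deviations from the mean of each age were correlated across genes between PW1 and PW5 libraries. The correlations were -0.071, 0.031 and 0.059 for same-numbered libraries and from -0.106 to 0.074 for the others. With 3 libraries per age they cannot show whether same-numbered mice shared a litter or a batch. With the number as a replicate block, 515 genes were higher and 1003 lower (log2 fold change of at least 1 as well: 238 and 450), against 893 and 1667 without it; the block leaves fewer degrees of freedom. 4 of the named genes no longer passed with the block (Cacna2d1, Ednra, Eln and Prrx1).

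In 2 alternatives chosen after seeing the data the counts moved too. With the epithelial covariate 563 genes were higher and 1147 lower. With PW5 replicates 1 and 3 both left out 442 were higher and 996 lower, with fewer samples. Of the named genes, Ednra alone no longer passed with the covariate, and 20 no longer passed with both libraries out (Agtr1a, Atp2b4, C3, Cacna2d1, Casq1, Ccl21a, Cd74, Dbh, Dcn, Des, Ednra, Eln, Gata6, Grp, Notch3, Pdgfra, Ptn, Sfrp5, Synpo2 and Tubb3). The log2 fold changes of these genes moved either way or hardly at all. Against the main fit they were 2.64 and 2.60 for C3, -1.096 and -1.094 for Gata6 and 1.52 and 1.41 for Grp. Smaller ones were 2.037 against 2.355 for Cd74 and -0.476 against -0.636 for Ednra. Myh11, which was not called, had a log2 fold change of -0.334 against 0.53 with both libraries out. Leaving out 1 library at a time gave 698 to 785 genes higher and 1206 to 1449 lower, and with a log2 fold change of at least 1 as well 301 to 386 higher and 544 to 641 lower. The other settings stayed within 1.5 times of the counts given.

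Of the 65 lists, the sign of the median differed in 4 under median-of-ratios scaling, 3 under quantile normalization, 1 with the same total FPKM and 1 with a filter at a mean of 1 FPKM. With 1 library left out it differed in 8, 1 and 3 for PW1 replicates 1, 2 and 3 and in 2, 2 and 4 for PW5 replicates 1, 2 and 3, and in 0 with the other changes named above (pseudocount, no filter, no trend, all 3 ages, block). Small counts of a list moved as well with 1 library left out: falls in the contractile apparatus went from 0 to 2 (without PW5 replicate 1), falls of transmitters and neuropeptides and rises of smooth muscle transcription regulators from 0 to 1 each (without PW5 replicate 1), rises in DNA methylation and chromatin from 0 to 1 (PW5 replicate 1 or 3), falls of interferon-stimulated genes from 0 to 1 (PW1 replicate 2), rises in oxidative phosphorylation from 2 to 1 (PW1 replicate 2, PW5 replicate 2 or PW5 replicate 3) and falls of xenobiotic enzymes from 1 to 2 (PW5 replicate 3) or 0 (PW1 replicate 2, PW1 replicate 3 or PW5 replicate 1). The 3 mice per age, FPKM without counts, an unstated share of proximal and distal colon and transcripts of other tissues that differ between libraries limit what these values can show. Genes over 10-fold apart within an age have wide errors.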
